A study of Mus musculus with 6 samples.

Results

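Transcripts of 10 transcription factors that direct commitment and maturation of NK cells were measured in CD27SP NK cells. The cells came from mice with an intact *Myc* gene or with a floxed one that Cre can delete. They are *Tbx21*, *Eomes*, *Nfil3*, *Id2*, *Tox*, *Tcf7*, *Gata3*, *Ikzf2*, *Zeb2* and *Prdm1*. These were chosen for their known roles, but with earlier results of these data known. They are 10 of the 25690 gene symbols of the tables, and all 10 were among the 15474 genes with enough counts for a test. RNA-seq libraries came from bone marrow cells, gated as positive for NK1.1 and CD27 and, among other exclusions, negative for CD11b and CD3, with 3 libraries from *Ncr1cre Myc* wt/wt mice and 3 from *Ncr1cre Myc* fl/fl mice, numbered 1, 2 and 4 in each genotype (wt/wt and fl/fl libraries in the following). Mice of both genotypes, for which the labels give no treatment, carried Cre in the *Ncr1* locus, which encodes NKp46, and the alleles had been backcrossed to C57BL/6. In *Ncr1cre Myc* fl/fl mice, both *Myc* alleles are floxed and are deleted in cells that have come to express NKp46, which include NK cells and group 1 innate lymphoid cells (ILC1s). The ages of the mice sequenced and the number of mice behind each library are not given in the labels. P-values therefore measure the spread between these libraries, which may be in part technical, and fewer expressing cells cannot be told apart from less RNA per cell.

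NK cells arise from common lymphoid progenitors in the bone marrow. Nfil3, Id2, Tox, Tcf7 (TCF-1) and Gata3 act early, when progenitors are restricted to the innate lymphoid lineages. The T-box factors Eomes and Tbx21 (T-bet) then maintain the lineage and drive its maturation from CD27SP cells to CD11b-expressing cells. Zeb2 and Prdm1 (Blimp-1) act in terminal maturation, whereas Ikzf2 (Helios) is an Ikaros-family factor described in immature NK cells. Whether the floxed allele changed the transcripts of these factors at the CD27SP stage is the question of the comparison.

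The threshold was an adjusted p below 0.01 in edgeR's quasi-likelihood test together with a log2 fold change of 0.5 or more in size. It was passed by 0 of the 10 factors and by 2.15% of all genes tested, 0.872% (135) in the lower and 1.28% (198) in the higher direction in fl/fl libraries. Without the replicate block these were 0 of the 10 and 2.5% of all genes. The T-box factors *Eomes* and *Tbx21* had log2 fold changes of 0.04 and −0.05, with 95% intervals of −0.25 to 0.33 and −0.39 to 0.30. *Id2* and *Tox* were higher in every *Ncr1cre Myc* fl/fl library than in every *Ncr1cre Myc* wt/wt library, with fitted levels 1.36 and 1.43 times the wt/wt level and intervals above 0. *Tox* alone had an adjusted p below 0.05 (0.0426, edgeR), which 7.83% of all genes had (3.38% lower and 4.45% higher). At an unadjusted p below 0.05, 3 of the 10 were higher and 0 lower, against 12.4% and 10.2% of all genes. DESeq2 called 1 of them (*Tox*) and 8.54% of the 13974 genes to which it gave an adjusted p (3.92% lower and 4.62% higher). By limma-trend, 0 of them and 1.71% of all genes passed (0.64% lower and 1.07% higher).

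The targeted gene was read first. *Myc* had 200.5, 183 and 164 CPM (counts scaled to a common library size with TMM factors) in wt/wt libraries 1, 2 and 4 and 61.5, 64.6 and 76.5 CPM in fl/fl libraries 1, 2 and 4. All *Ncr1cre Myc* fl/fl libraries were below all *Ncr1cre Myc* wt/wt libraries, with a log2 fold change of −1.44 (SE 0.15, adjusted p = 0.00189 in edgeR, and 0.0105 without replicate 1). The fitted fl/fl level was thus 0.37 times that of wt/wt. The paper describes Cre activation in the CD27SP subset as recent, and the share of sorted cells with both alleles deleted is not given. Depth was uneven. The estimated counts summed to 8101219 in wt/wt library 1 and to between 54550907 and 64962491 in the other 5 libraries, so the members' counts ran from 344 for *Ikzf2* in that shallow library to 116009 for *Id2*. The sorted cells carried NK cell markers throughout, led by *Nkg7* and *Il2rb*, with a summed level of 8 genes of 13138 to 14259 CPM in wt/wt and 15440 to 16776 CPM in fl/fl libraries and with 0 of 8 past the threshold. *Cd27* measured 237 ± 13.7 and 250.2 ± 24.2 CPM (SD, n = 3 each), and *Itgam*, which encodes the CD11b excluded by the gate, 41.6 ± 6.04 and 43.6 ± 2.82 CPM.

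Markers of other cells also moved with the genotype. Of 9 basophil and mast cell markers, 8 were higher past the threshold, and their summed level was 15.1 to 18.6 CPM in wt/wt and 122 to 335 CPM in fl/fl libraries. *Prss34* and *Mcpt8* made up most of the sum in fl/fl but not in wt/wt libraries. Markers of neutrophils and granulocyte progenitors, led by *Mpo* and *Elane*, summed to 85.5 to 140.2 CPM and 538 to 897 CPM, with 4 of 9 tested higher. Erythroid markers, led by *Hbb-bs* and *Hba-a1*, summed to 27.2 to 149 CPM and 314 to 633 CPM. Of these 6 markers, 3 were higher past the threshold, but not *Hbb-bs* or *Hba-a1*. For ILC1 markers, led by *Cxcr6* and *Inpp4b*, the sums were 262 to 385 CPM and 456 to 522 CPM, and 1 of 6 (*Inpp4b*, log2 fold change 1.36, adjusted p = 0.00154 in edgeR, and 0.0115 with effective-length offsets) was higher. Markers of monocytes and dendritic cells, led by *Lyz2* and *Flt3*, summed to 16.1 to 21.8 CPM and 51.7 to 66.4 CPM. Of 6 tested, 2 were higher past the threshold, among them *Lyz2* but not *Flt3*. Those of plasmacytoid dendritic cells (*Cox6a2*, *Siglech*) summed to 26.5 to 32.5 CPM and 32.6 to 38.8 CPM, with 1 of 3 (*Siglech*) higher, while *Cox6a2* measured 23.0 ± 0.80 and 18.0 ± 5.22 CPM (SD, n = 3 each). T cell markers (*Trbc1*, *Trbc2*) summed to 909 to 1254 CPM and 894 to 1163 CPM with 0 of 9 past the threshold, while plasma cell markers (*Jchain*, *Sdc1*) summed to at most 42.4 CPM with 0 past it. No marker of these lists was at 0 in all libraries. The ILC2 marker *Il17rb* had 0.13, 0.23 and 0.34 CPM in the wt/wt libraries and 2.21, 1.81 and 1.22 CPM in the fl/fl libraries (log2 fold change 2.65, adjusted p = 0.0155 in edgeR), and the B cell marker *Cd79b* 3.25, 5.53 and 6.73 CPM and 9.53, 9.44 and 8.99 CPM (0.87, adjusted p = 0.0898 in edgeR). Both genes, named after their values were seen, were higher in all fl/fl libraries but not past the threshold. *Il17rb* rests on 1, 13 and 22 counts in the wt/wt libraries and was not the most abundant marker of its list. Neither gene stands for its cell type as a whole. Within its genotype fl/fl library 4 stood apart, with the highest granulocyte sum (897 CPM), the lowest basophil sum (122 CPM) and, as given below, the highest *Nfil3* and *Prdm1*. The part of such cells in the members' values was not tested.

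Levels were compared between the factors on the TPM scale, which is per transcript length. *Id2*, an inhibitor of E-protein transcription factors, was the most abundant in each of the 6 libraries, at 1596 ± 15.2 TPM in wt/wt and 2295 ± 49.3 TPM in fl/fl libraries (SD, n = 3 each, as in the following). *Tcf7* came second in each library, at 284 ± 38.8 and 336 ± 64.4 TPM. *Eomes* (227 ± 19.8 and 249 ± 16.8 TPM) and *Tbx21* (216 ± 39.2 and 227 ± 28.9 TPM) followed in an order that changed between libraries.

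The other 6 factors lay at or below 121 TPM in every library. *Tox* (56.7 ± 2.54 and 90.1 ± 6.62 TPM), *Nfil3* (54.0 ± 7.99 and 87.1 ± 29.3 TPM) and *Gata3* (46.4 ± 7.17 and 60.0 ± 3.75 TPM) formed the middle of the order. The lowest means were those of *Zeb2* (42.8 ± 15.6 and 29.3 ± 4.80 TPM), *Ikzf2* (28.1 ± 6.26 and 30.1 ± 1.77 TPM) and *Prdm1* (21.4 ± 2.43 and 31.9 ± 8.96 TPM). In wt/wt libraries, neighbours in this order overlapped except at the steps from *Id2* to *Tcf7* and from *Tbx21* to *Tox*. The log2 ratios of fl/fl to wt/wt mean levels were larger in TPM than in counts per kilobase scaled by TMM, 0.67 against 0.57 for *Tox* and 0.52 against 0.42 for *Id2*. Antisense genes overlap *Eomes*, *Tox*, *Tcf7*, *Gata3*, *Ikzf2* and *Zeb2* in the annotation. These antisense genes were not analysed here, and as the library kit keeps no strand, reads from them that fall on exons of the factors cannot be told apart.

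**Figure D1:**
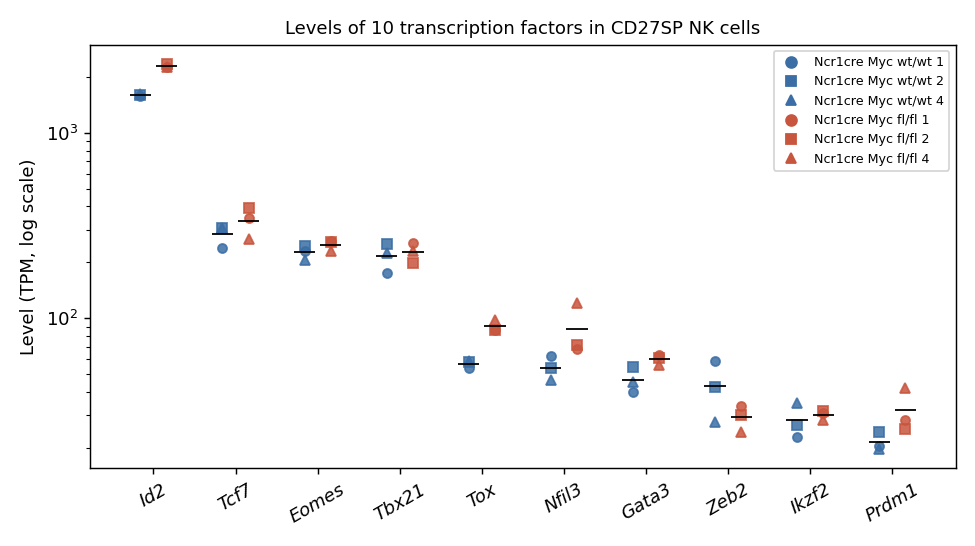
Level of each factor in TPM on a log axis, ordered by mean, with 1 point per library (blue, Ncr1cre Myc wt/wt; red, Ncr1cre Myc fl/fl; circle, square and triangle for libraries 1, 2 and 4) and a bar at each mean. Id2 lies above every other factor and the next is Tcf7, while the red points of Id2, Tox, Nfil3, Gata3 and Prdm1 lie above all of their blue points. The share of all genes for which this holds in TPM was not computed.

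*Eomes* (ENSMUSG00000032446.14, GRCm38 chromosome 9 from 118478212 to 118486132) and *Tbx21* (ENSMUSG00000001444.2, chromosome 11 from 97098071 to 97115331) encode the T-box factors of the lineage. NK cells express both, whereas ILC1s express T-bet with little or no Eomes. Because these genes define the lineage, the 250 bases before the RefSeq start of each are shown here (GRCm38.p6, chr9:118477939-118478188 on the plus strand and chr11:97115332-97115581 on the minus strand, written 5′ to 3′ along the gene). Capitals mark CCAAT boxes (CCAAT or its complement ATTGG) and GC boxes (GGGCGG or its complement CCGCCC).
Eomes: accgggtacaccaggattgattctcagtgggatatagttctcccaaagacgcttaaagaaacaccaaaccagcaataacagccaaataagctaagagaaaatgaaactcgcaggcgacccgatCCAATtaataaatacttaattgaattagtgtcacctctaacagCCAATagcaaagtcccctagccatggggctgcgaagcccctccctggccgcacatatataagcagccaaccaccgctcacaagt
Tbx21: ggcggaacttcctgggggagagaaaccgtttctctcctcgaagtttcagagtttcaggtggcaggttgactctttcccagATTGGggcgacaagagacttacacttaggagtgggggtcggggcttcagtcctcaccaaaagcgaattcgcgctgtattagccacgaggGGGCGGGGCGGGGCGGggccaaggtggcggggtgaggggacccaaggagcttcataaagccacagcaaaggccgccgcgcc
The *Eomes* window held 2 CCAAT boxes, beginning 127 and 84 bases before the start, no GC box and 46.4% G and C. That of *Tbx21* held 1 CCAAT box, beginning 170 bases before the start, 3 overlapping GC boxes from 81 bases before it, and 60.8% G and C.

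Windows of this kind were found for 8 of the 10 factors, 12 windows in all. CCAAT boxes stood in 6 of the 12 and GC boxes in 9 of the 12, against 33.8% and 32.7% of 32851 such windows over all genes. Of the 12, 4 belong to *Zeb2* and 2 to *Tcf7*, and an overlapping pair of the *Zeb2* windows holds the same GC box. Counted by gene, each box stood in 6 of the 8 factors, against 37.5% (CCAAT) and 35.4% (GC) of 27025 genes. The E-box CACGTG bound by Myc with Max was in 0 of the 12 and in 6.02% of all windows. Likewise, 0 of the 12 held the T-box site AGGTGTGA (1.12% of all), the GATA site AGATAA (9.99%) or the TCF site CTTTGAT (3.21%), on either strand. These counts say only which letters lie in the windows.

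*Eomes* measured 517, 479 and 427 CPM in wt/wt libraries 1, 2 and 4 and 499, 509 and 448 CPM in fl/fl libraries 1, 2 and 4. The fl/fl values lay inside the wt/wt range. Means of 474 ± 45.1 and 486 ± 32.6 CPM (SD, n = 3 each) gave a log2 fold change of 0.04 (SE 0.13, 95% interval −0.25 to 0.33, adjusted p = 0.917 in edgeR). On the linear scale the interval ran from 0.839 to 1.25 times the wt/wt level. Most counts of the gene belonged to ENSMUST00000035020, a coding transcript of 6 exons, with mean shares of 75.0% and 75.1%.

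*Tbx21* measured 297, 371 and 341 CPM in the wt/wt libraries and 359, 288 and 331 CPM in the fl/fl libraries. Both genotypes spanned about the same range, and the lowest value was that of fl/fl library 2. The means of 337 ± 37.3 and 326 ± 36.1 CPM (SD, n = 3 each) gave a log2 fold change of −0.05 (SE 0.15, interval −0.39 to 0.30, adjusted p = 0.907 in edgeR). Its sign turned under 4 of the 20 alternatives with an estimate of their own, up to 0.12 without replicate 2. The log2 ratio of *Eomes* to *Tbx21*, from TPM, was 0.08 ± 0.28 in wt/wt and 0.14 ± 0.21 in fl/fl libraries, and the genotypes overlapped.

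*Nfil3* (ENSMUSG00000056749.7, chromosome 13 from 52967209 to 52981073) encodes a basic leucine zipper factor needed for the first NK-committed progenitors. Its CPM values were 86.5, 65.2 and 58.5 in the wt/wt libraries and 80.3, 86.7 and 144 in the fl/fl libraries. The genotypes overlapped, and fl/fl library 4 exceeded all others. On the TPM scale they did not overlap, with 62.2, 53.6 and 46.2 TPM in the wt/wt libraries and 68.4, 72.0 and 121 TPM in the fl/fl libraries. From 70.1 ± 14.6 to 103.7 ± 35.1 CPM (SD, n = 3 each), the log2 fold change was 0.54 (SE 0.23, interval 0.02 to 1.05) with an unadjusted p = 0.042 and, in edgeR, an adjusted p = 0.202. Between same-numbered libraries the differences were −0.11, 0.41 and 1.30 (log2). Without replicate 4 the estimate was 0.14 (adjusted p = 0.839 in edgeR), without replicate 1 it was 0.86 (adjusted p = 0.0726 in edgeR), and over all alternatives the adjusted p lay between 0.0726 and 0.839.

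*Id2* (ENSMUSG00000020644.9, chromosome 12 from 25093799 to 25097140) had 1462, 1388 and 1484 CPM in the wt/wt libraries and 1908, 2051 and 1943 CPM in the fl/fl libraries. All fl/fl libraries were higher than all wt/wt libraries. Means of 1445 ± 50.4 and 1967 ± 74.5 CPM (SD, n = 3 each) gave 1.36 times the wt/wt level, or a log2 fold change of 0.45 (SE 0.13, interval 0.15 to 0.75, unadjusted p = 0.00800 and adjusted p = 0.0765 in edgeR). The estimate was positive under all 20 alternatives with an estimate of their own, between 0.40 and 0.48, with adjusted p from 0.0122 (DESeq2) to 0.275. It stayed below the fold limit of the threshold in each of them. Transcript ENSMUST00000020974 held 87.6% of the gene's counts in wt/wt and 87.2% in fl/fl libraries (means of 3).

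*Tox* (ENSMUSG00000041272.11, chromosome 4 from 6686353 to 6991557) encodes an HMG-box factor of early NK development. In the wt/wt libraries it had 127, 139.7 and 137 CPM and in the fl/fl libraries 182, 189 and 206 CPM. The genotypes were apart, with narrow spread within each. Means of 135 ± 6.74 and 192 ± 12.4 CPM (SD, n = 3 each) gave a log2 fold change of 0.51 (SE 0.13, interval 0.22 to 0.81, unadjusted p = 0.00288, adjusted p = 0.0426 in edgeR), larger than the spread between libraries but not past the threshold. DESeq2 put it past the threshold (log2 fold change 0.51, adjusted p = 0.00375), the only member that any method or scaling called at these limits, and DESeq2 called 8.54% of genes against 2.15% in edgeR. Over the alternatives the estimate ran from 0.46 to 0.59 and the adjusted p from 0.00375 to 0.225. Coding transcripts held 83.7% to 87.9% of its counts, and with these alone the log2 fold change was 0.48 (adjusted p = 0.0526 in edgeR).

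*Tcf7* (ENSMUSG00000000782.15, chromosome 11 from 52252371 to 52283014) encodes TCF-1, the nuclear effector of canonical Wnt signalling that is abundant in immature NK cells. It measured 416, 448 and 473 CPM in the wt/wt libraries and 496, 580.3 and 383 CPM in the fl/fl libraries. The fl/fl libraries held both the highest value and, in library 4, the lowest. With means of 446 ± 28.7 and 487 ± 98.8 CPM (SD, n = 3 each), the log2 fold change was 0.11 (SE 0.16, interval −0.25 to 0.47, adjusted p = 0.764 in edgeR). ENSMUST00000086844, a coding transcript of 10 exons, made up 79.2% and 76.3% of the counts.

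The log2 ratio of *Tcf7* to *Prdm1*, from TPM, contrasts a factor of immature with one of mature cells. It was 3.56, 3.66 and 3.95 in the wt/wt libraries and 3.61, 3.96 and 2.66 in the fl/fl libraries. Library 4 of the fl/fl genotype was the lowest of the 6, and the genotypes overlapped. For *Tcf7* to *Tbx21* the ratio was 0.40 ± 0.10 and 0.55 ± 0.40 (SD, n = 3 each), again with overlap.

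*Gata3* (ENSMUSG00000015619.10, chromosome 2 from 9857078 to 9890034) encodes a zinc-finger factor of early lymphoid specification, active in bone marrow NK cells and T cells. Its levels were 93.2, 107 and 95.5 CPM in the wt/wt libraries and 118, 121 and 115 CPM in the fl/fl libraries. The genotypes did not overlap, although the gap between wt/wt library 2 and fl/fl library 4 was small. Means of 98.7 ± 7.62 and 118 ± 3.23 CPM (SD, n = 3 each) differed by 0.26 on the log2 scale (SE 0.13, interval −0.03 to 0.55, adjusted p = 0.275 in edgeR). All alternatives kept it positive, between 0.21 and 0.34.

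*Ikzf2* (ENSMUSG00000025997.13, chromosome 1 from 69531214 to 69687245) had 44.7, 46.6 and 68.4 CPM in the wt/wt libraries and 58.8, 60.4 and 48.8 CPM in the fl/fl libraries. Within wt/wt, library 4 was high, and within fl/fl, library 4 was low. The means of 53.2 ± 13.1 and 56.0 ± 6.25 CPM (SD, n = 3 each) gave a log2 fold change of 0.09 (SE 0.19, interval −0.33 to 0.51, adjusted p = 0.843 in edgeR). Most of its counts did not belong to coding transcripts. Retained-intron transcripts held 64.8% to 72.3% of them, chiefly ENSMUST00000188919, which has 3 exons near the start of the gene from 69681559 to 69687140 and held 53.9% to 65.5%. Counts of coding transcripts alone gave a log2 fold change of 0.13, an alternative chosen after seeing the data.

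*Zeb2* (ENSMUSG00000026872.17, chromosome 2 from 44983632 to 45117395) encodes a zinc-finger E-box-binding repressor that acts with T-bet in terminal maturation. It measured 73.8, 59.8 and 45.4 CPM in the wt/wt libraries and 58.4, 52.8 and 42.9 CPM in the fl/fl libraries. Each fl/fl library was below the wt/wt library of its number, but the genotypes overlapped. From means of 59.7 ± 14.2 and 51.4 ± 7.85 CPM (SD, n = 3 each), the log2 fold change was −0.20 (SE 0.14, interval −0.51 to 0.11, adjusted p = 0.450 in edgeR). Its log2 ratio to the related repressor *Zeb1*, from TPM, was 0.06 ± 0.52 and −0.29 ± 0.09.

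The value for *Zeb2* depended on which of its 29 transcripts were counted. Coding transcripts held 48.3% to 68.3% of the counts and retained-intron transcripts 27.4% to 44.8%, of which ENSMUST00000202371 alone held 20.6% to 35.8%. With coding transcripts only, chosen after seeing the data, the log2 fold change turned to 0.05, and with offsets from the effective lengths it was −0.57 (adjusted p = 0.113 in edgeR). The coding transcript ENSMUST00000028229 took 38.7%, 22.8% and 32.5% of the gene's counts in the wt/wt libraries and 5.62%, 21.9% and 26.9% in the fl/fl libraries. The coding transcript ENSMUST00000068415, whose first base lies 2764 bases further upstream, took at most 1.56% in any wt/wt library and 26.8%, 5.74% and 12.2% in the fl/fl libraries. The genotypes did not overlap in the share of the latter, 1 of 29 transcripts, named after the values were seen. These shares are estimates of the quantifier for transcripts that share most exons, and they were not tested. How many transcripts of all genes show no overlap was not computed, and wt/wt library 1 had only 568 counts of *Zeb2*.

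**Figure D2:**
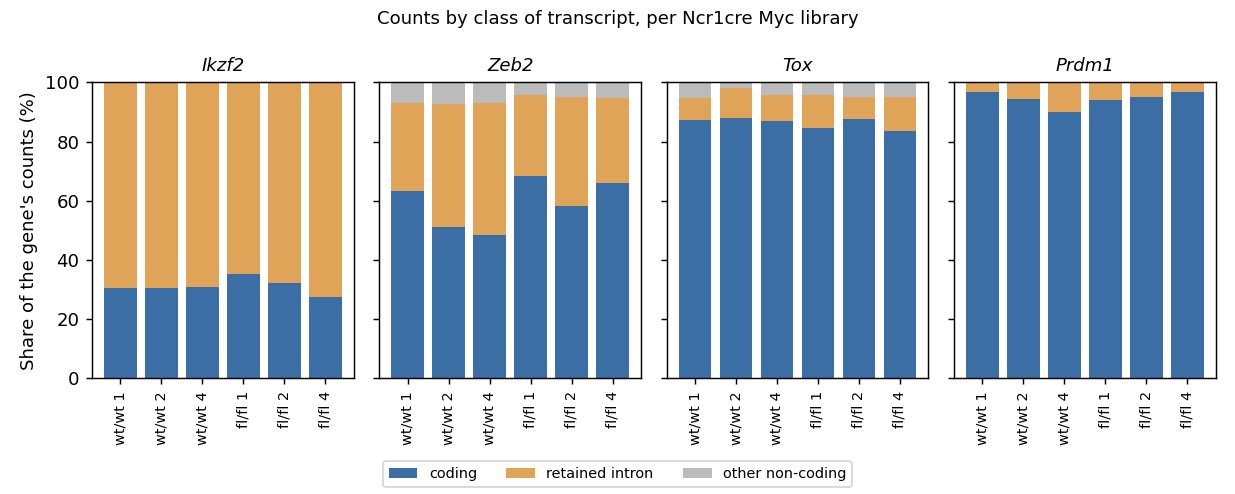
Share of each gene's estimated counts (%) held by coding, retained-intron and other non-coding transcripts, as stacked bars for the 6 libraries. Retained-intron transcripts hold most counts of Ikzf2 (64.8% to 72.3%) and 27.4% to 44.8% of those of Zeb2, against at most 11.4% for Tox and 10.1% for Prdm1.

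*Prdm1* (ENSMUSG00000038151.13, chromosome 10 from 44437177 to 44528501) encodes Blimp-1, a transcriptional repressor that promotes the terminal differentiation of lymphocytes. Its levels were 57.2, 56.5 and 41.1 CPM in the wt/wt libraries and 62.2, 59.2 and 104 CPM in the fl/fl libraries. The genotypes did not overlap, but only fl/fl library 4 was far from the others. Means of 51.6 ± 9.11 and 75.2 ± 25.2 CPM (SD, n = 3 each) gave a log2 fold change of 0.51 (SE 0.23, interval −0.01 to 1.04, adjusted p = 0.235 in edgeR). Differences between same-numbered libraries were 0.12, 0.07 and 1.34 (log2), and without replicate 4 the estimate was 0.07 (adjusted p = 0.917 in edgeR), against 0.71 and 0.76 without replicates 1 and 2. In the same library the summed granulocyte markers stood at 897 CPM, against 559 and 538 CPM in fl/fl libraries 1 and 2, and their part in the *Prdm1* and *Nfil3* values was not tested. Other genes, named after their values were seen, set this library further apart. Against fl/fl libraries 1 and 2 it had 1488 CPM (472 and 358) of the granzyme gene *Gzmb*, 1988 CPM (846 and 891) of the perforin gene *Prf1*, 37.1 CPM (7.93 and 7.85) of the maturation marker *Klrg1* and 65.6 CPM (12.9 and 9.88) of the ILC1 marker *Itga1*. The lists of these genes did not move as one. Among the fl/fl libraries it was highest for 5 and lowest for 3 of the 10 genes of late maturation, with 9.68 CPM (18.3 and 21.7) of *S1pr5*, and highest for 3 and lowest for 2 of the 6 ILC1 markers, with 58.6 CPM (96.0 and 135) of *Tmem176b*. In wt/wt libraries 1, 2 and 4 *Klrg1* measured 23.5, 23.3 and 18.6 CPM. Those values lie above fl/fl libraries 1 and 2 and below fl/fl library 4 (log2 fold change −0.73, adjusted p = 0.389 in edgeR).

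**Figure D3:**
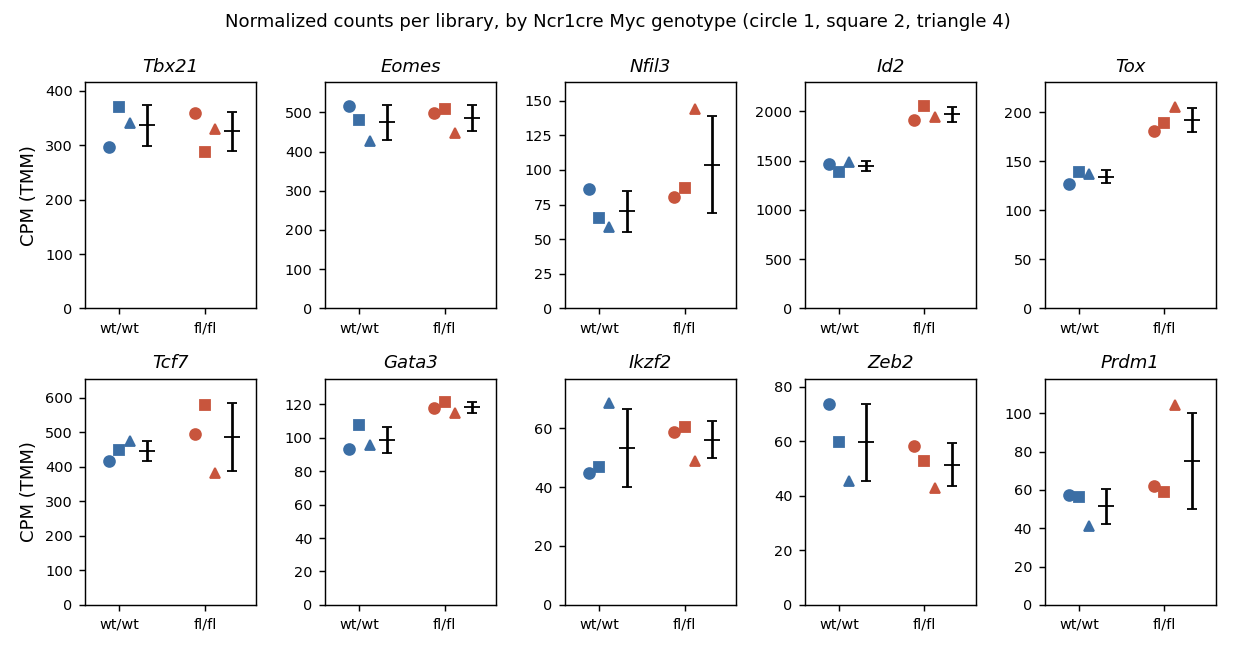
CPM of each factor by library (circle, square and triangle for libraries 1, 2 and 4), with the mean and SD of the 3 libraries of each genotype beside the points, on axes that start at 0. Id2, Tox, Gata3 and Prdm1 show no overlap between genotypes, and the triangle of fl/fl library 4 is the highest point for Nfil3 (144 CPM) and Prdm1 (104 CPM).

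Across the 10 factors, 4 (*Id2*, *Tox*, *Gata3* and *Prdm1*) were higher in fl/fl libraries without overlap and 0 were lower without overlap, against 16.2% and 15.1% of all genes tested (31.3% in either direction). The estimate was above 0 for 8 of the 10 and for 51.5% of all genes. On the TPM scale *Nfil3* was without overlap as well, and the share of all genes without overlap on that scale was not computed. *Actb*, outside the 10, also had a larger log2 ratio in TPM than in counts per kilobase scaled by TMM (0.46 against 0.36). The median log2 fold change of the 10 was 0.18, beside 0.01 over all genes and 0.21 over the 8 NK cell markers. The 10 factors lay at percentiles 72.7 to 99.7 of mean CPM among the genes tested. The shares over all genes thus include many less abundant genes.

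**Figure D4:**
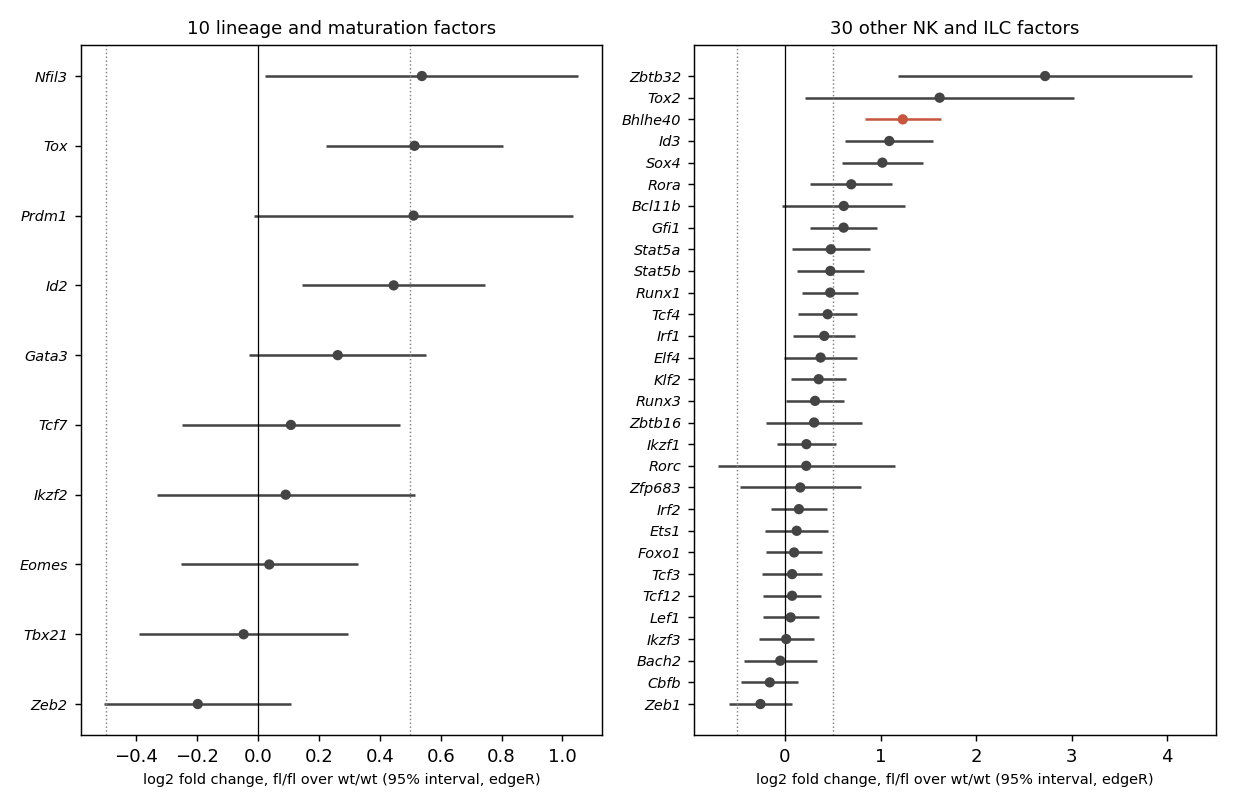
Log2 fold change of fl/fl over wt/wt with its 95% interval (edgeR) for the 10 factors, left, and for 30 other transcription factors of NK cells and ILCs, right, with dotted lines at the fold limit of 0.5 in either direction. Intervals of 3 of the 10 (Nfil3, Tox and Id2) and of 14 of the 30 lie above 0, and Bhlhe40 in red is the only gene of either panel past the threshold.

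Beside them, a list of 30 other transcription factors of NK cells and ILCs had 1 gene higher past the threshold and 0 lower. *Bhlhe40*, a basic helix-loop-helix repressor, rose from 239, 203 and 202 CPM to 417, 461 and 662 CPM, with all fl/fl libraries higher. Its log2 fold change was 1.23 (SE 0.18, adjusted p = 0.00514 in edgeR), and the adjusted p was 0.0122 without replicate 2 and 0.0106 without replicate 4. The list's median was 0.33, with 27 of 30 estimates and 14 of 30 intervals above 0. Another 4 genes, *Id3*, *Sox4*, *Gfi1* and *Zbtb32*, named after their values were seen, had an adjusted p below 0.05 in edgeR. The values of *Zbtb32* were 24.4 CPM in fl/fl library 4 and at most 1.83 CPM elsewhere.

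Genes of late NK maturation went in both directions. Of 10 such genes, 2 fell and 1 rose past the threshold, with a median log2 fold change of 0.17. Their summed level was 2617 to 3233 CPM in the wt/wt libraries and 2851, 2795 and 5456 CPM in the fl/fl libraries, so that only fl/fl library 4 was above the wt/wt range. For 3 genes named after their values were seen, the threshold was not passed. The estimates of *Gzmb* (1.73, adjusted p = 0.0216 in edgeR) and *Prf1* (0.93, adjusted p = 0.0771 in edgeR) were positive. That of *Gzma* was negative (−0.64, adjusted p = 0.0564 in edgeR). This gene, the most abundant of the list in the wt/wt libraries, had 2024, 1587 and 1516 CPM there and 1030, 900.5 and 1380 CPM in the fl/fl libraries, all lower. For *Gzmb* and *Prf1* the difference between same-numbered libraries was greatest for number 4 (3.16 and 2.00 on the log2 scale, against 1.16 or less for numbers 1 and 2). *S1pr5*, which encodes a sphingosine-1-phosphate receptor for exit from the bone marrow, had 50.7, 43.0 and 20.8 CPM in the wt/wt libraries and 18.3, 21.7 and 9.68 CPM in the fl/fl libraries. Its log2 fold change was −1.18 (adjusted p = 0.00540 in edgeR, 0.0622 without the replicate block, and 0.0263 and 0.0124 without replicates 1 and 2). The mast cell protease gene *Cma1* measured 16.7 ± 2.23 and 4.76 ± 1.21 CPM (SD, n = 3 each) and thus fell, with a log2 fold change of −1.84 (adjusted p = 0.00253 in edgeR, 0.0111 and 0.0105 without replicates 1 and 2). *Ly6c2* rose from 194 ± 56.8 to 345 ± 108 CPM (SD, n = 3 each), by 0.83 on the log2 scale (adjusted p = 0.00756 in edgeR, 0.0760 without the block). Its adjusted p was from 0.0146 to 0.0341 when any one replicate number was left out.

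Of 9 genes of immature NK cells, 1 rose and 0 fell past the threshold, with a median log2 fold change of 0.18. *Kit*, the stem cell factor receptor gene, measured 77.1 ± 11.7 and 188 ± 53.4 CPM (SD, n = 3 each) and had a log2 fold change of 1.26 (adjusted p = 0.0056 in edgeR, and 0.0293 and 0.0193 without replicates 1 and 2). Mast cells and progenitors also express *Kit*, and their markers moved with the genotype as given above. Their part in this value was not tested.

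**Figure D5:**
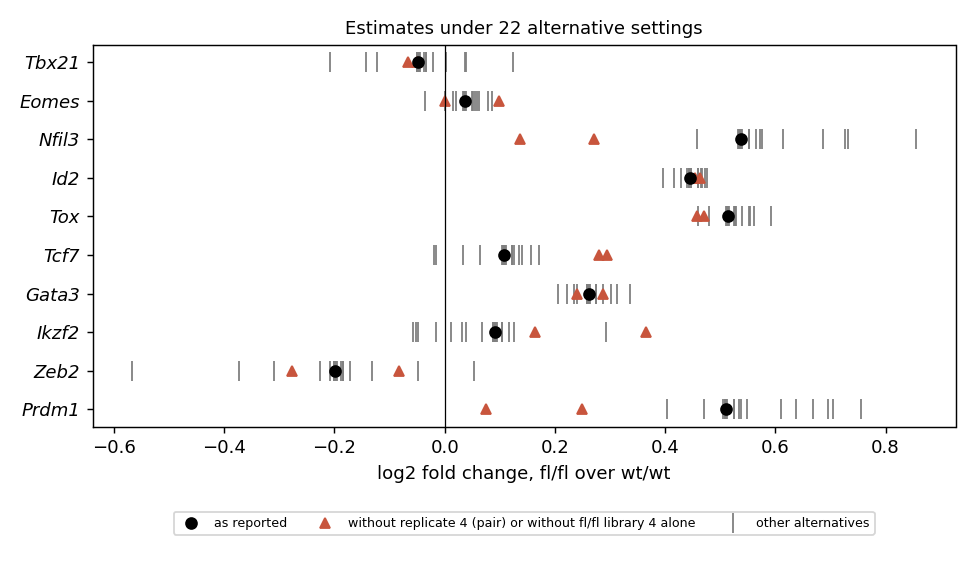
Log2 fold change of each factor as reported (black), without replicate 4 or fl/fl library 4 (red triangles) and under the other alternatives (grey ticks). Id2, Tox and Gata3 keep narrow positive ranges, Nfil3 and Prdm1 are at 0.14 and 0.07 without replicate 4, and Zeb2 runs from −0.57 to 0.05.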

How the data were processed

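RNA of sorted CD27SP NK cells was amplified with SMART-Seq v4, a kit that keeps no strand, and sequenced single end. The authors deposited one transcript table per library, with an estimated count, which is not normalized, and a TPM value for each of 100583 mouse transcripts, beside lengths and effective lengths. The columns are those of kallisto, whereas the submitters' processing notes and the methods name Salmon, the nf-core/RNAseq pipeline and GRCh38.

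Through the GENCODE M21 annotation of GRCm38, 100239 transcripts were assigned to 25690 gene symbols, and 344 transcripts, with 0.129% to 0.169% of the counts, were left out. For 97.7% of the matched transcripts the annotated length was the deposited one. Estimated counts were summed per symbol and rounded. Genes were kept by filterByExpr with its defaults, scaled by TMM and compared by the quasi-likelihood test of edgeR 4.0.16 (R 4.3.3) with Benjamini-Hochberg adjustment over 15474 genes. The replicate number entered the fit as a blocking term, following the description of the expression analyses as paired. Intervals are 95% intervals of this fit. TPM values were summed per symbol for levels and ratios, without a test.

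The members and all gene lists were chosen with earlier results of these data known. The text names the 10 members and *Myc*, the genes of each list past the threshold (at most 3 per direction), and the 2 most abundant markers of each cell type given, with 1 marker each for 2 further lists (ILC2s and B cells) that are not reported here as lists. A rule for genes with profiles like those of called members named none. Within a genotype, counts of any pair of libraries differed beyond sampling noise (chi-square over degrees of freedom, 40.0 to 101), and each library was counted as 1 sample. Deviations of same-numbered libraries from their genotype means correlated at −0.01, −0.02 and 0.05 over 15474 genes for replicates 1, 2 and 4, under the limit of 0.1, which does not establish that equal numbers mark paired samples.

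Alternatives were no block, each replicate pair or library left out, DESeq2 1.42.0, limma-trend (limma 3.58.1), the largest adjusted p of these methods and edgeR, other scalings, other filters, effective-length offsets and a looser threshold. Coding transcripts only, leaving out markers of other cells, and running the alternatives on the other lists were added after seeing the data. Upstream windows are RefSeq's, matched by symbol.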

Additional observations from a re-analysis of the deposited data

How the results depend on the processing

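Of the 10 factors, *Nfil3*, *Id2*, *Tox*, *Gata3* and *Prdm1* kept a positive log2 fold change under all 20 alternatives that re-estimated it, the other 2 changing only the p or the threshold. The number of members higher past the threshold was 1 (*Tox*) with DESeq2 (4.62% of genes higher) and 1 (*Tox*) at the looser threshold, an adjusted p under 0.05 whatever the fold (4.45%), and 0 under the others, all replicates left out in turn included. The numbers of the libraries were not shown to pair them. Without the replicate block 0 members passed, 2.50% of all genes did (184 lower, 203 higher), and the log2 fold changes of *Id2* and *Tox* were 0.45 and 0.51 at adjusted p of 0.0341 and 0.0194 in edgeR.

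Signs turned only for estimates near 0 or for *Zeb2*. With one replicate number or one library left out, *Tbx21* ran from −0.21 to 0.12, *Eomes* from −0.035 to 0.099, *Tcf7* from −0.019 to 0.29 and *Ikzf2* from −0.057 to 0.36. *Tbx21* was at 0.0030 with effective-length offsets. *Zeb2* was at 0.054 from coding transcripts, where neither retained-intron nor other non-coding transcripts are counted, and the part of each class was not tested. For the other reversals the cause was not tested.

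Of all genes, 135 were lower and 198 higher. With one replicate or library left out, 6 to 130 were lower and 19 to 162 higher. Lower and higher genes numbered 548 and 645 with DESeq2, 25 and 49 with library size only, 378 and 524 without a filter, 6 and 24 with effective-length offsets, and 523 and 689 at the looser threshold. The other 30 factors had 1 gene higher, against 2 without the block, 4 with DESeq2, 0 with library size only, 4 without a filter, 0 with offsets, 5 at the looser threshold and 0 to 2 with a replicate or library left out. With 3 libraries per genotype, 1 of them shallow, the standard errors of the members were 0.13 to 0.23 on the log2 scale, which limits the change that could be detected.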
